A study of Mus musculus with 4 samples.

Results

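Interstitial collagens, the small proteoglycans that bind them and the glycoproteins laid down with them form the loose matrix around vessels, outside the basement membrane. The 10 genes described here, of 32285 in the table, were chosen by name, with earlier results of these data known. They are the fibrillar collagen genes Col1a1, Col1a2, Col3a1 and Col5a2, the type VI collagen genes Col6a1 and Col6a2, the small leucine-rich proteoglycan genes Bgn and Dcn, the fibronectin gene Fn1, and Fstl1, which encodes a secreted glycoprotein of the SPARC family. Type I collagen is built from the products of Col1a1 and Col1a2, with more α1 than α2 chains in each triple helix, and type VI collagen needs both its α1 and α2 chains and an α3 chain. Pericytes, the mural cells that share a basement membrane with the endothelium, resemble fibroblasts in making some of these proteins, whereas type IV collagen and laminins of the basement membrane come from both cell types.

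The cells came from the hyaloid vessels of P6 mice, which supply the developing lens and vitreous body and regress after birth. Vitreous bodies of 7 Gpr124 fl/fl mice, Cre-negative littermates that also received tamoxifen daily from P1 to P4, made 1 suspension, and those of 9 Gpr124 ΔEC/ΔEC mice, which carried VECad-Cre-ERT2 and so lost floxed Gpr124 in endothelial cells only, made the other. After Subtilisin A digestion, cells of each suspension gated on CD31 filled 1 plate of 384 wells and cells gated on PDGFRB filled another, and some wells of the Gpr124 ΔEC/ΔEC PDGFRB-gate plate took cells of the CD31 gate. The mice were littermates pooled by genotype, occasional vessel segments kept GPR124 after the deletion, and each genotype counts as 1 sample.

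SORT-seq counts the 3′ ends of transcripts in each well by unique molecular identifiers (UMIs), so that 1 molecule gives at most 1 UMI whatever the length of its gene, and all levels below are UMIs of a gene per 10000 UMIs of the same cells. Of 1536 wells, 1478 had fewer than 1000 UMIs after scaling between plates, 11 had more than 8000, and 42 of the remaining 47 had a mitochondrial share under 10%. Cldn5 without Pdgfrb marked 11 of them as endothelial cells, with a median of 3020 UMIs. Pdgfrb without Cldn5 marked 21 as pericytes, with a median of 3750 UMIs: 6 in the Gpr124 fl/fl CD31-gate plate, 3 in the Gpr124 fl/fl PDGFRB-gate plate and 12 in the Gpr124 ΔEC/ΔEC PDGFRB-gate plate. Gate and class did not coincide. After sorting on CD31, Gpr124 fl/fl gave 2 endothelial cells beside 6 pericytes, and Gpr124 ΔEC/ΔEC gave 4 beside 0. After sorting on PDGFRB, Gpr124 fl/fl gave 3 endothelial cells beside 3 pericytes, and Gpr124 ΔEC/ΔEC gave 2 beside 12. A gate named below therefore identifies a plate and not a class. The label pericyte fitted its markers, with 723 Rgs5, 107 Notch3 and 84 Ndufa4l2 UMIs in pericytes against 21, 2 and 0 in endothelial cells. Of 10 fibroblast markers, 8 had no UMI in pericytes, Pdgfra and Dpt among them, and the list summed to 5 UMIs, 4 of Apod and 1 of Smoc2. Of 7 smooth muscle markers, 4 had UMIs in pericytes, and the list summed to 160 UMIs there and 10 in endothelial cells. The 4 were Acta2 (102), Tagln (29), Des (23) and Myh11 (6). Smooth muscle cells were not told apart from pericytes. Every well barcode occurs in all 4 plates, and 10 of the 32 cells, 7 of them pericytes, share theirs with a well of at least 1000 UMIs in another plate. The deleted gene, listed as Adgra2, had 0 UMIs in Gpr124 ΔEC/ΔEC endothelial cells and 3 in Gpr124 fl/fl endothelial cells, a number too low to check the labels.

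The genes lie on 6 chromosomes of GRCm38. Col3a1 (chr1:45311538-45349706, plus strand) and Col5a2 (chr1:45374321-45503282, minus strand) are neighbours, their 3′ ends separated by 24614 bases, and Col6a2 (chr10:76595762-76623630) lies 85161 bases from Col6a1 (chr10:76708792-76726168), both on the minus strand. Col1a1 (chr11:94936224-94953042), Col1a2 (chr6:4504814-4541544), Bgn (chrX:73483602-73495933), Dcn (chr10:97479609-97518143), Fn1 (chr1:71585520-71653200) and Fstl1 (chr16:37776873-37836514) stand apart. A noncoding gene overlaps Col1a2, Col3a1 and Col5a2 on the same strand and an antisense gene overlaps Fn1, so that a few UMIs of these 4 could be assigned otherwise.

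Promoters of Col3a1 and Bgn are shown because both genes were higher in pericytes while their start sites differ in sequence. RefSeq promoters on GRCm38.p6 were at hand for 6 of the 10 genes, and these 2 windows, the 100 bases before the start, touch no annotated exon. Capitals mark TATA, CCAAT or GGGCGG, each searched on both strands (CCGCCC is GGGCGG on the other strand).
Col3a1, chr1:45311438-45311537, plus strand: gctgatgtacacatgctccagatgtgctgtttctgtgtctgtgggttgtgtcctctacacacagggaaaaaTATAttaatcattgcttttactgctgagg
Bgn, chrX:73483501-73483600, plus strand: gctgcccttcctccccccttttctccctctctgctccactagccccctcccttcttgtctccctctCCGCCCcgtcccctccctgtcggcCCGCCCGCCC
The Col3a1 window holds TATA and none of the other letters searched, and the Bgn window holds CCGCCC and neither TATA nor CCAAT. Over 250 bases before the start, 34.0% of 32851 promoters held TATA, 33.8% held CCAAT and 32.7% held GGGCGG, so each is common.

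Pericytes held 483 UMIs of the 10 genes among 80460, 60.0 per 10000 (95% Poisson interval 54.8 to 65.6), and endothelial cells 40 among 31048, 12.9 per 10000 (9.20 to 17.5). The ratio was 4.66 (exact interval 3.37 to 6.60). In the 3 pericyte sums by plate the level lay between 57.1 and 73.8, and in the 4 endothelial sums between 3.35 and 28.7, without overlap. The 8 basement membrane genes counted beside them, a list that includes Col4a1 and Nid1, stood at 146 per 10000 in pericytes and 78.9 in endothelial cells, a ratio of 1.85 (1.61 to 2.14). Intervals cover counting error only. Every pericyte held UMIs of at least 2 of the 10 genes, with a median of 5 and a maximum of 7, while endothelial cells had a median of 2 and 2 of the 11 had none.

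Among the fibrillar collagens, Col1a2, the α2 chain of type I collagen, separated the classes most sharply. Its level was 9.44 per 10000 in the Gpr124 fl/fl CD31-gate pericytes, 12.8 in the Gpr124 fl/fl PDGFRB-gate pericytes and 11.2 in the Gpr124 ΔEC/ΔEC pericytes, and it was 0 in 3 endothelial sums and 1.01, a single UMI, in the Gpr124 ΔEC/ΔEC PDGFRB-gate sum. Pooled, 89 UMIs in pericytes stood against 1 in endothelial cells, a ratio of 34.3 with an interval of 6.01 to 1372. Per well, the endothelial UMI amounts to 0.0909, within counting error of the 0.0805 in wells under 1000 UMIs. It is therefore not read as expression, nor the ratio as one between 2 levels of expression. Of the 21 pericytes, 20 held at least 1 Col1a2 UMI, as did 1 of the 11 endothelial cells, and with every cell thinned to 1000 UMIs the mean shares were 63.7% and 2.99%.

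Col3a1, which forms type III collagen, the fibril of compliant tissues such as vessel walls, had the same pattern at a lower level. The 3 pericyte sums were 6.66, 8.51 and 5.58 per 10000 in the order given for Col1a2, and the endothelial sums were 1.61 in the Gpr124 fl/fl CD31 gate, again 1 UMI, and 0 in the other 3. The pooled ratio was 19.7 (3.38 to 792). Here too the endothelial UMI, 0.0909 per well, lay within counting error of wells under 1000 UMIs, at 0.0832, and is not read as expression. Col3a1 was carried by fewer cells than Col1a2, 15 of 21 pericytes.

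Col5a2, a chain of type V collagen, which nucleates fibrils of types I and III, was 0.555 per 10000 in the Gpr124 fl/fl CD31-gate pericytes, 5.68 in the Gpr124 fl/fl PDGFRB-gate pericytes and 2.48 in the Gpr124 ΔEC/ΔEC pericytes. Its endothelial sums were 0, 0, 1.69 and 2.01, so the classes overlapped. The pooled log2 ratio was 1.43 with an interval of -0.31 to 3.82.

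Col1a1 was nearly missing from cells that expressed its partner chain. Pericytes held 3 Col1a1 UMIs, 2 in 1 Gpr124 fl/fl cell and 1 in a Gpr124 ΔEC/ΔEC cell, a level of 0.373 per 10000 (0.0769 to 1.09), and endothelial cells also held 3. The Col1a2 to Col1a1 ratio in pericytes was 29.7 (9.83 to 147). In the 11 wells above 8000 UMIs, which had no part in defining the cells, it was 20.5 (7.71 to 77.0), from 82 and 4 UMIs. These are counts of 3′ ends assigned to each gene, and how completely the counting captures Col1a1 was not tested.

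Wells under 1000 UMIs, most of them with too few molecules to be counted as cells, showed the opposite order. They held 173 Col1a1 UMIs in 162 wells and 119 Col1a2 UMIs, a Col1a2 to Col1a1 ratio of 0.688 (0.540 to 0.874). The mean number of Col1a1 UMIs per well was 0.0993 in wells under 100 UMIs, 0.127 from 100 to under 200, 0.0981 from 200 to under 300 and 0.132 from 300 to under 1000, and it was 0.143 in pericytes, which have many times as many UMIs. Over the same 5 groups Col1a2 was at 0.0274, 0.0533, 0.0755, 0.329 and 4.24 UMIs per well. Endothelial cells were at 0.273 Col1a1 UMIs per well (0.0562 to 0.797) and the 11 wells over 8000 UMIs at 0.364 (0.0991 to 0.931), both above the low-well mean of 0.117 with intervals that include it. The Col1a1 intervals of all these groups of wells overlapped, and Col1a2 rose from the low wells to the pericytes. By plate, low wells had 0.108 to 0.133 Col1a1 UMIs each. Per well, the 3 Col1a1 UMIs of the 21 pericytes and the 3 of the 11 endothelial cells lay within counting error of the low wells, so they are not read as expression. Where the UMIs of the low wells came from was not tested.

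**Figure D1:**
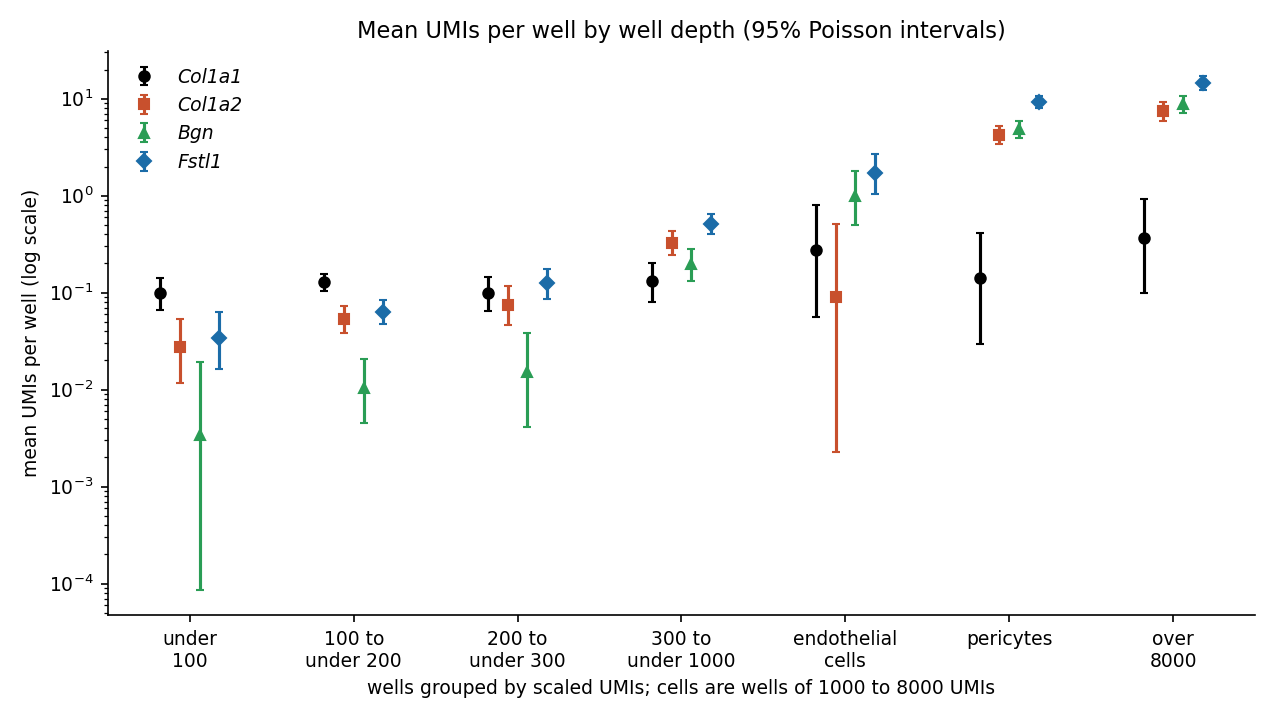
Mean UMIs per well (log axis, 95% Poisson intervals) of Col1a1, Col1a2, Bgn and Fstl1 in 4 groups of wells under 1000 UMIs, in the 11 endothelial cells and 21 pericytes, and in 11 wells over 8000 UMIs. Col1a1 stays near 0.1 UMIs per well in the low wells and is 0.143 in pericytes, whereas Col1a2 goes from 0.0274 to 4.24 and Fstl1 from 0.0342 to 9.24.

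The type VI collagen genes were close to the limit of detection. Col6a2 had 6 UMIs in 4 pericytes, 0.746 per 10000 (0.274 to 1.62), and 0 in endothelial cells, where a count of 0 allows up to 1.19 per 10000. Col6a1 had 0 UMIs in both classes, which allows up to 0.458 per 10000 in pericytes, and Col6a3, the α3 chain, also had 0. In the low wells Col6a2 had 36 UMIs and Col6a1 had 6, 1.60 and 0.266 per 10000.

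The small leucine-rich proteoglycan genes divided. Bgn, which encodes biglycan, a collagen-binding proteoglycan, was at 15.0, 13.5 and 11.6 per 10000 in the pericyte sums. Its endothelial sums were 1.61 in the Gpr124 fl/fl CD31 gate, 0 in the Gpr124 fl/fl PDGFRB gate, 11.8 in the Gpr124 ΔEC/ΔEC CD31 gate and 3.02 in the Gpr124 ΔEC/ΔEC PDGFRB gate. The Gpr124 ΔEC/ΔEC CD31-gate endothelial sum, 7 UMIs in 3 of 4 cells, thus lay just above the lowest pericyte sum, and the other 3 lay below all pericytes. Pooled, 102 UMIs against 11 gave a ratio of 3.58 (1.92 to 7.39). Dcn, which encodes decorin, the proteoglycan that coats fibrils in most connective tissue, had 0 UMIs in both classes and in the 11 wells over 8000 UMIs, with an upper limit of 0.458 per 10000 in pericytes. Low wells held 5 Dcn UMIs.

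Fn1, the gene of fibronectin, a glycoprotein that links collagen to integrins, was low and variable. It was 1.11, 0.709 and 2.90 per 10000 in the pericyte sums and 1.61, 1.12, 0 and 0 in the endothelial sums, and the classes overlapped, with a pooled ratio of 3.28 (0.779 to 29.3). The endothelial sums rest on 2 UMIs, 0.182 per well (0.0220 to 0.657). That is within counting error of the 0.0426 in wells under 1000 UMIs and is not read as expression. In the 8 wells over 8000 UMIs with Pdgfrb and no Cldn5 the Fn1 level was 6.72 per 10000, from 46 UMIs of which 1 well held 15, against 2.11 in pericytes (1.23 to 3.38). For the 10 genes together, those wells (61.7 per 10000, 55.9 to 67.8) and the pericytes (60.0) lay within counting error of each other.

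Fstl1 was the most abundant of the 10 in pericytes and the only one present in all 21. Its pericyte sums were 22.8, 31.2 and 22.5 per 10000 and its endothelial sums 6.43, 2.23, 13.5 and 5.03, with no overlap. It was also the most abundant in endothelial cells, where 9 of 11 held it, and the pooled ratio of 194 to 19 UMIs was 3.94 (2.46 to 6.69). At 1000 UMIs per cell, the mean share of cells with Fstl1 was 91.8% in pericytes and 44.4% in endothelial cells. By level in pericytes the order was Fstl1 (24.1), Bgn (12.7), Col1a2 (11.1), Col3a1 (6.34), Col5a2 (2.61), Fn1 (2.11), Col6a2 (0.746) and Col1a1 (0.373). The intervals of Bgn and Col1a2 overlapped, as did those of Col5a2, Fn1 and Col6a2 with each other and those of Col6a2 and Col1a1.

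**Figure D2:**
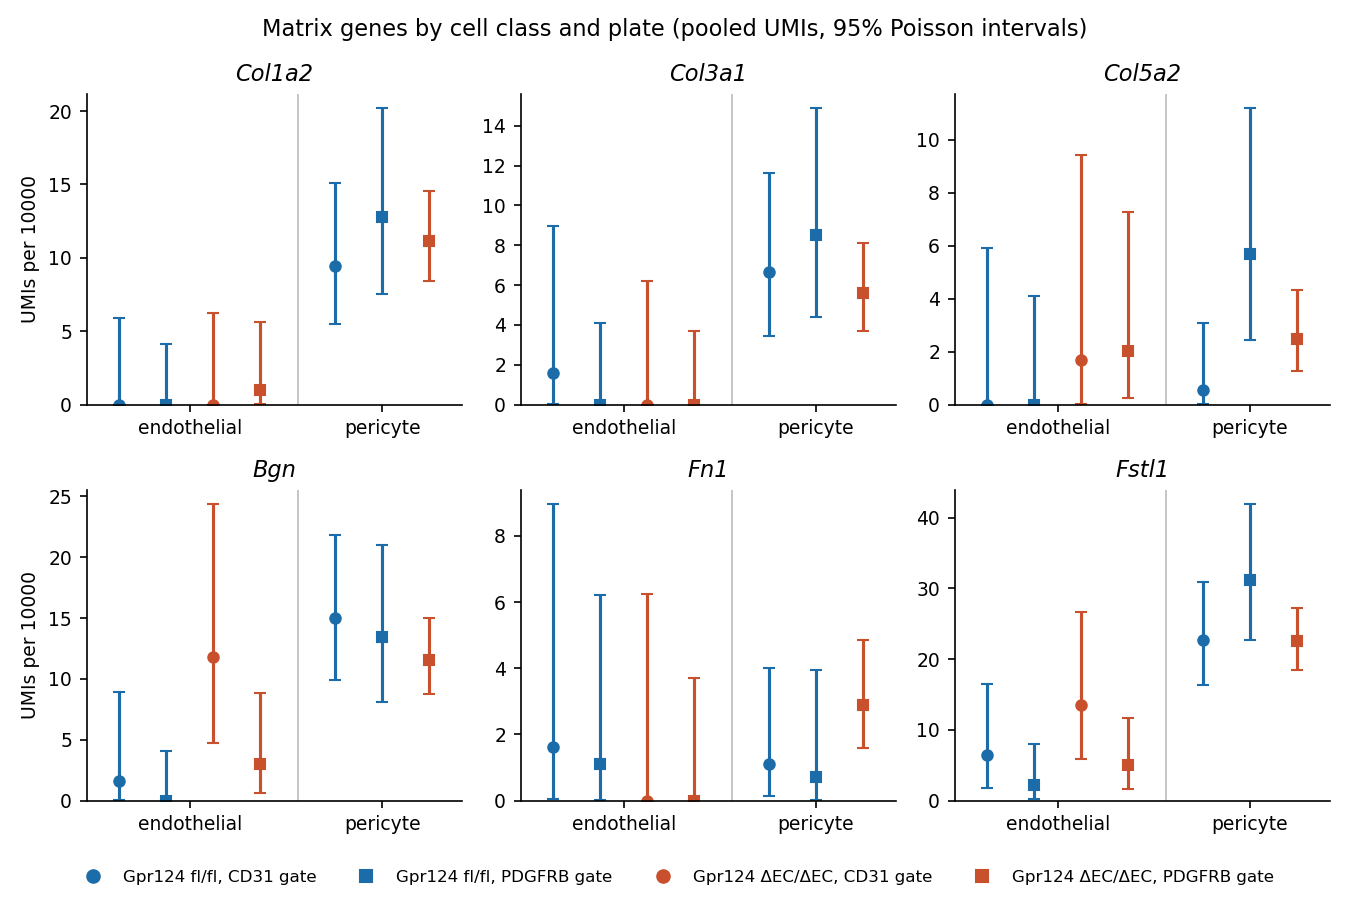
UMIs per 10000 of 6 genes in the 4 endothelial and 3 pericyte sums (class by plate), with 95% Poisson intervals. Circles are CD31-gate plates, squares PDGFRB-gate plates, blue Gpr124 fl/fl and orange Gpr124 ΔEC/ΔEC. Every pericyte sum of Col1a2, Col3a1 and Fstl1 is above every endothelial sum, and Bgn overlaps at 11.8 and 11.6.

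The classes were tested across all genes with edgeR's quasi-likelihood test on the 7 sums, in which plates of 2 suspensions stand as replicates and p-values measure only the spread between plates. The filter on low counts left 146 genes. Of the 10 genes Bgn and Fstl1 passed it, and both were higher in pericytes, beside 24% of all genes tested that were higher and 9.59% that were lower. The filter asks for a minimum level in as many sums as the smaller class, pericytes, has. Both genes met it through the pericyte sums, where they are high, so that both were higher is no result apart from those levels. Over the 146 genes, Fstl1 was without overlap between the classes and Bgn was not, beside 13% of genes with every pericyte sum above every endothelial sum. Bgn had a log2 fold change of 2.26 (SE 0.50, Benjamini-Hochberg adjusted p = 4.94e-05, range over 13 alternatives 4.40e-06 to 0.0380), and Fstl1 one of 2.41 (SE 0.36, adjusted p = 6.96e-10, range over 14 alternatives 3.11e-10 to 0.00951). On the pooled UMI scale the median tested gene was at -0.49 (log2, pericyte minus endothelial) and after TMM scaling at -0.02, so fitted changes are higher than pooled ratios.

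Without the filter, edgeR tested 8 of the 10 among 10827 genes and called 4 higher and 0 lower in pericytes, beside 1.73% of all genes higher. At an unadjusted p under 0.05, 7 were higher and 0 lower, beside 8.99% and 1.74% of all genes. DESeq2 gave an adjusted p for 5 of them and called 4 higher and 0 lower, beside 5.28% higher and 3.64% lower of the 2006 genes to which it gave one. Col1a2 (log2 fold change 5.48, SE 0.86, adjusted p = 1.50e-07), Col3a1 (4.74, SE 0.94, adjusted p = 1.10e-04), Bgn (2.63, SE 0.58, adjusted p = 8.24e-04) and Fstl1 (2.78, SE 0.48, adjusted p = 3.52e-06) were called. Col5a2, Fn1, Col6a2 and Col1a1 were tested and not called, with adjusted p of 0.325, 0.438, 0.438 and 0.908. The size of the Col1a2 and Col3a1 changes rests on 1 endothelial UMI each. In the same fit all pericyte sums were above all endothelial sums for Col1a2, Col3a1, Col6a2 and Fstl1, a pattern that 6.17% of the genes had. The 10827 genes include many with few UMIs, and 1915 genes had at least 10 in pericytes. The shares given for edgeR are therefore not shares of genes with like counts. Calls in pericytes were not particular to the 10 genes. Of the 8 basement membrane genes, all tested without the filter, edgeR called 4 higher and 0 lower. DESeq2 called 4 of those 8 higher and 1 lower. The 10 genes were chosen with earlier results of these data known, so the shares give no independent test of them.

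Wider lists from the same matrix gave context. Outside the basement membrane list, 3 genes passed the filter and missed the threshold: Serpinh1, the collagen chaperone (log2 fold change 1.04, SE 0.44, adjusted p = 0.0550), Sparc, which binds collagen (-0.35, SE 0.28, adjusted p = 0.329, and 0.06 without the filter), and Igfbp7, a vessel-wall glycoprotein (0.51, SE 0.28, adjusted p = 0.151). Without the filter, 2 of 4 tested small leucine-rich proteoglycan genes were higher in pericytes. They were Aspn, encoding asporin, with 34 UMIs against 0 (lower limit of the exact ratio interval 3.37, adjusted p = 7.03e-04), and Ogn. Ogn, encoding osteoglycin, had 30 against 0 (lower limit 2.95, adjusted p = 0.00165). Both exceeded Dcn, and Lum had 0 UMIs in both classes. Postn, the gene of periostin, had 44 against 0 (lower limit 4.41, adjusted p = 8.50e-05) and was the 1 gene called of 15 tested glycoprotein and elastic fibre genes. Pcolce, which enhances the cleavage of procollagen I, had 27 against 0 (lower limit 2.64, adjusted p = 0.00510) and was the 1 gene called of 15 tested for collagen folding and processing. Pcolce was singled out after its values were seen. Of 4 other fibrillar and interstitial collagen genes tested and 8 of collagen degradation, edgeR called 0, and 1 and 3 had an unadjusted p under 0.05. DESeq2 gave an adjusted p to 0 and 1 of these genes, so it could hardly have called any and adds nothing here. In the 5 interstitial lists, the other named genes that edgeR did not call were Loxl2 (33 and 5 UMIs in pericytes and endothelial cells), Mfap2 (26 and 4), Bmp1 (28 and 7), Ppib (34 and 18), P4hb (23 and 13) and Mmp14 (23 and 8). Their edgeR adjusted p ran from 0.221 to 0.842. None of the 5 interstitial lists had a gene called lower in pericytes by either tool, or lower at an unadjusted p under 0.05. DESeq2 gave many of these genes no adjusted p. Some pooled levels were lower, however. The folding and processing list stood at 71.6 per 10000 in pericytes and 87.0 in endothelial cells. Sparc, in that list, was at 36.3 and 59.9 (pooled ratio 0.606, 0.502 to 0.732), with every pericyte sum below every endothelial sum. Plod1, a lysyl hydroxylase gene, had 6 and 9 UMIs (ratio 0.257, 0.0753 to 0.809). Among basement membrane genes, Col4a1, Col4a2 and Nid1 were higher in the filtered fit, with log2 fold changes of 1.40, 1.03 and 1.44 (SE 0.29, 0.29 and 0.33). Hspg2, the gene of perlecan, went the other way, with 2 UMIs in pericytes and 13 in endothelial cells (pooled ratio 0.0594, 0.00650 to 0.262). It did not pass the filter, and without it edgeR gave an adjusted p of 0.146 and DESeq2 one of 0.0307. Sparc, Plod1 and Hspg2 were singled out for their direction after their values were seen.

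The pericytes differed from each other more for some of these genes than counting allows. The 10 genes together ranged from 34.6 to 141 per 10000 in single pericytes, with a median of 56.6, and the variance was 3.49 times its counting expectation. For Fstl1 the ratio was 1.09, near that of counting alone. It was 1.35 for Fn1, 1.61 for Col5a2, 2.04 for Col1a2, 2.49 for Bgn and 4.05 for Col3a1, for which 45.1% of the 51 UMIs lay in 3 cells. The highest Bgn count, 15 UMIs, came from a Gpr124 ΔEC/ΔEC pericyte with 1 Col1a2 and 1 Col3a1 UMI, and the highest Col3a1 count, 9 UMIs, from one with 11 Col1a2 and 9 Bgn UMIs. Across the 21 pericytes, which come from 3 plates, the 15 pairs of the 6 genes with at least 10 UMIs had Spearman correlations from -0.20 to 0.45 with a median of 0.16. Col5a2 with Fstl1 (0.45), Col1a2 with Col3a1 (0.45) and Col1a2 with Col5a2 (0.44) were highest, in counts this sparse a weak relation. Of 224 genes with at least 50 UMIs in pericytes, those most like the sum of the 10 over single pericytes were Itga1 (Spearman 0.60), Tmsb4x (0.55), Tubb5 (0.54), Actb (0.49) and Rps7 (0.47), in a range of -0.75 to 0.60. The sum per 10000 had a Spearman correlation of -0.10 with the cells' UMIs and 0.12 with the mitochondrial share.

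**Figure D3:**
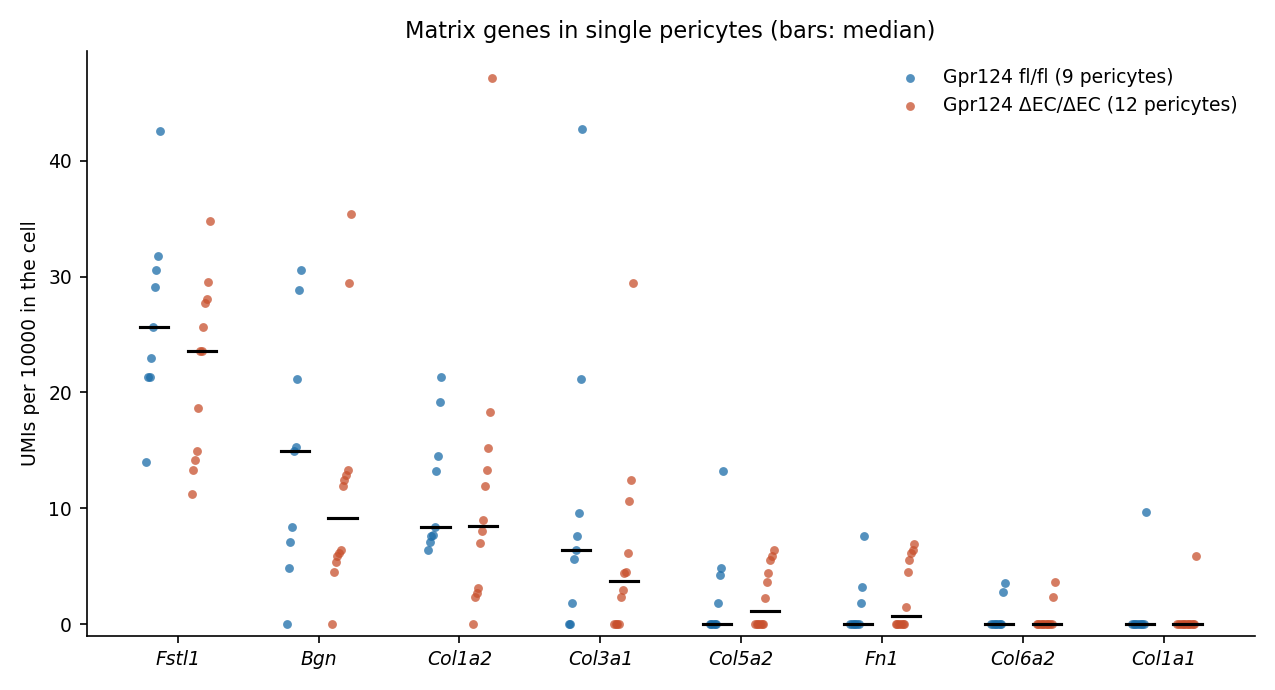
UMIs per 10000 of 8 genes in each of 9 Gpr124 fl/fl (blue) and 12 Gpr124 ΔEC/ΔEC (orange) pericytes, 1 point per cell, bars at the medians. Fstl1 is above 0 in every cell, Col1a2 in 20 of 21, and Col3a1 spreads from 0 to 42.7.

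Endothelial loss of Gpr124 could act on the matrix of the adjoining pericytes or of the endothelium itself, which the genotypes were compared to see. With 1 suspension per genotype there is no test, and ratios carry counting intervals only. In pericytes the 10 genes stood at 64.5 per 10000 in Gpr124 fl/fl (207 UMIs of 32109) and 57.1 in Gpr124 ΔEC/ΔEC (276 of 48351), a log2 ratio of 0.18 (-0.09 to 0.44). The 2 Gpr124 fl/fl plates were at 57.2 and 73.8 and the Gpr124 ΔEC/ΔEC plate at 57.1, so the difference between genotypes was no larger than that between plates of 1 genotype. The sum at 73.8, from 3 cells, also had fewer pericyte marker UMIs, 119.9 per 10000 against 203 and 199 in the other 2 pericyte sums, and the part of this in the level was not tested. Without that plate the log2 ratio was 0.0024, and with a mitochondrial limit of 5% it was -0.12. The interval holds equal levels and leaves room for a level up to 1.36 times higher in Gpr124 fl/fl.

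Single genes gave the same picture in pericytes. The log2 ratio of Gpr124 fl/fl over Gpr124 ΔEC/ΔEC was -0.04 (-0.69 to 0.61) for Col1a2, 0.42 (-0.44 to 1.27) for Col3a1, 0.18 (-1.25 to 1.55) for Col5a2, 0.31 (-0.29 to 0.90) for Bgn and 0.23 (-0.19 to 0.65) for Fstl1. Fn1 was lowest at -1.63 (-4.07 to 0.21), from 3 and 14 UMIs. All 6 intervals include equal levels. Fn1 was the 1 of these 6 genes past 2-fold, and it was lower in Gpr124 fl/fl, as were 12.6% of 1915 genes with at least 10 UMIs, while 13.1% were higher by that much and none of the 6. Their median was 0.20 against 0.01 for all such genes. Beside them, the 10 other fibrillar and interstitial collagen genes had 15 UMIs together in Gpr124 fl/fl pericytes against 4 in those of Gpr124 ΔEC/ΔEC (log2 ratio 2.50, 0.85 to 4.55), and Aspn (14 and 20 UMIs), Ogn (13 and 17) and Postn (15 and 29) had intervals that include equal levels. In the same pericytes 14 macrophage marker UMIs were found in Gpr124 ΔEC/ΔEC and 0 in Gpr124 fl/fl, with Csf1r and Mrc1 at 0, and their part in these values was not tested.

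In endothelial cells the order was the other way. The 5 Gpr124 fl/fl cells held 10 UMIs of the 10 genes among 15184, 6.59 per 10000, and the 6 Gpr124 ΔEC/ΔEC cells 30 among 15864, 18.9 per 10000, a log2 ratio of -1.52 (-2.72 to -0.45). By plate, Gpr124 fl/fl was at 11.2 in the CD31 gate and 3.35 in the PDGFRB gate, and Gpr124 ΔEC/ΔEC at 28.7 and 13.1, so that both Gpr124 ΔEC/ΔEC plates were above both Gpr124 fl/fl plates. Bgn contributed 1 and 10 UMIs (log2 ratio -3.26, -8.70 to -0.45) and Fstl1 6 and 13 (-1.05, -2.73 to 0.44). Leaving out 1 plate moved the Bgn ratio between -4.17 without the Gpr124 ΔEC/ΔEC PDGFRB gate and -1.97 without the Gpr124 fl/fl PDGFRB gate, and it has no value without the Gpr124 fl/fl CD31 gate, which held the 1 UMI. The Fstl1 ratio was -1.88 without the Gpr124 fl/fl CD31 gate, -1.77 without the Gpr124 ΔEC/ΔEC PDGFRB gate and -0.35 with either of the other plates left out, and with a mitochondrial limit of 5% it was -0.11. The other members were at or under the floor, so no fold is given: Col1a1 and Col5a2 had 0 and 3 UMIs each and Col1a2 0 and 1, whereas Fn1 had 2 and 0 and Col3a1 1 and 0. Within gates the log2 ratio of the sum was -1.35 over CD31-gate plates and -1.97 over PDGFRB-gate plates.

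Of the 538 genes with at least 10 UMIs in endothelial cells, 17.8% were lower by at least 2-fold in Gpr124 fl/fl, Bgn and Fstl1 among them, and 12.6% were higher. The wider lists did not share 1 direction. The basement membrane list was at 55.3 per 10000 in Gpr124 fl/fl and 101 in Gpr124 ΔEC/ΔEC (log2 ratio -0.88, -1.27 to -0.49), and the glycoprotein and elastic fibre list at 44.8 and 63.7 (-0.51, -0.97 to -0.05). Collagen folding and processing was at 92.2 and 81.9 (0.17, -0.18 to 0.53) and collagen degradation at 5.27 and 3.78 (0.48, -1.24 to 2.28). The 4 Gpr124 ΔEC/ΔEC CD31-gate cells had 1104 to 1785 UMIs, and the other 7 endothelial cells 1715 to 6901. Endothelial markers were also higher in both Gpr124 ΔEC/ΔEC plates, at 196 and 149 per 10000 in the CD31-gate and PDGFRB-gate cells. In those of Gpr124 fl/fl they were level with each other, at 127 and 126, where the 10 genes were at 11.2 and 3.35. Pericyte markers in endothelial cells, 7 of 15 detected, summed to 11.8 and 14.1 per 10000 in the Gpr124 ΔEC/ΔEC CD31-gate and PDGFRB-gate cells and to 35.3 and 5.58 in those of Gpr124 fl/fl, with Higd1b, Ndufa4l2 and Vtn at 0, and Rgs5, the most abundant of them in pericytes, was at 7.56 in Gpr124 ΔEC/ΔEC and 5.93 in Gpr124 fl/fl. Erythroid markers stood at 260 per 10000 in the Gpr124 fl/fl PDGFRB-gate endothelial cells and at 5.07 or less in the other 3 sums. The part of these markers in the ratio was not tested. Genotype and suspension cannot be told apart.

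**Figure D4:**
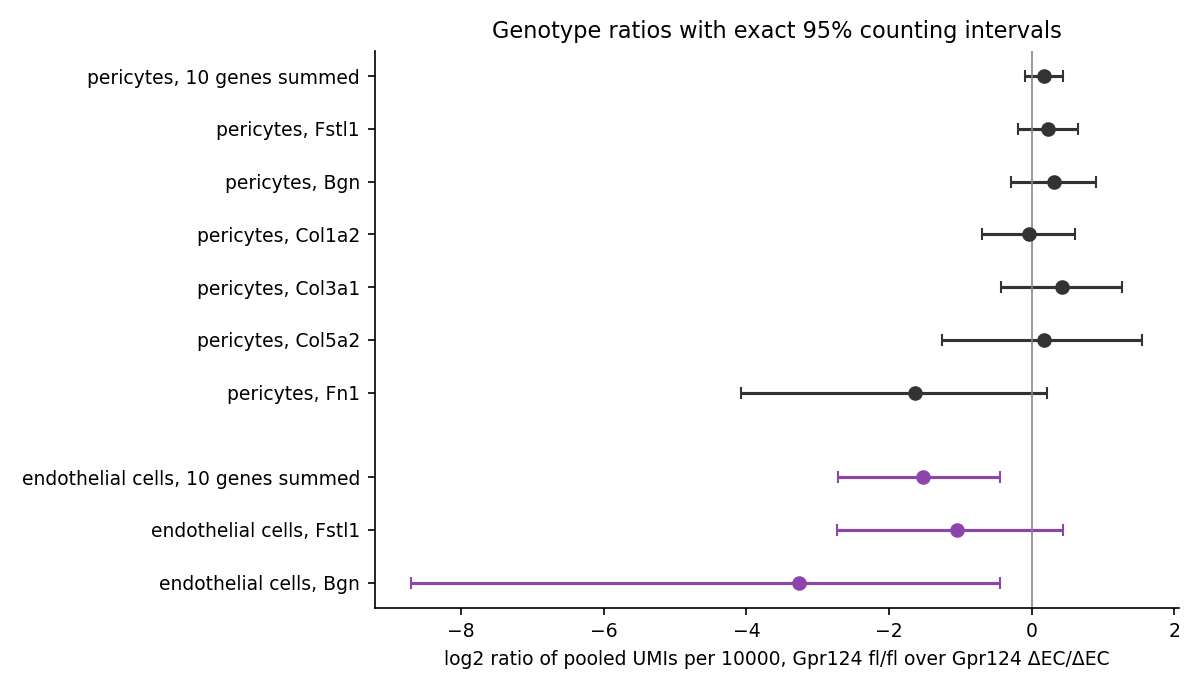
Log2 ratios of pooled UMIs per 10000, Gpr124 fl/fl over Gpr124 ΔEC/ΔEC, with exact 95% counting intervals, for pericytes (black) and endothelial cells (purple). The pericyte intervals all include 0, and in endothelial cells the 10 genes summed (-1.52) and Bgn (-3.26) lie below it.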

How the data were processed

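The authors sequenced 4 SORT-seq plates (2 per genotype) and aligned reads to GRCm38 with STARsolo 2.7.11b, per the submitters' processing notes. The deposited values are estimated counts, UMIs of a gene in a well without scaling, and 5.48% of those above 0 are not whole. Plates hold 51972 to 174645 mouse UMIs and 599865 spike-in UMIs in all. Columns of per-sample values left unused: 0. Rows that name no gene: 0. Values were rounded for sums, intervals and tests. Spike-ins were left out, totals multiplied so that each plate's median well reached that of the highest plate, and wells kept with 1000 to 8000 UMIs and under 10% mitochondrial UMIs. Doublets were not called, and the 3 wells with both markers and 7 with neither were left out of the classes.

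The 10 genes, the wider lists and the comparisons were chosen with earlier results of these data known. Named beside them are list genes with at least 30 UMIs over both classes and the 5 genes most correlated with the sum over pericytes. Classes were compared over sums per class and plate with edgeR 4.0.16 (filterByExpr, TMM, glmQLFTest, two-sided, Cldn5 and Pdgfrb left out, adjusted p under 0.05), on limma 3.58.1 and R 4.3.3, with DESeq2 1.42.0 as an alternative. Genotypes were compared by ratios of pooled UMIs with exact conditional binomial intervals, levels by exact Poisson intervals, at 95%, with a floor of 3 counts over a group. Variance over counting expectation is the Pearson statistic over cells divided by its degrees of freedom. Methods were tested on simulated data. Alternatives were other UMI and mitochondrial limits, no plate scaling, no filter, unrounded values, a plate block, single gates and each plate left out. Leaving out cells that share a barcode and subtracting the level of low wells were chosen after seeing the data. Positions are GENCODE vM21. Python 3.11.15, numpy 2.4.6, scipy 1.17.1 and matplotlib 3.10.9 were used.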

Additional observations from a re-analysis of the deposited data

Results flagged for a closer look

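By plate, the summed level of the 10 genes was ordered differently between genotypes in the 2 cell classes. In endothelial cells every Gpr124 fl/fl plate was lower than every Gpr124 ΔEC/ΔEC plate (log2 ratio -1.52), and in pericytes every Gpr124 fl/fl plate was higher than the Gpr124 ΔEC/ΔEC plate (log2 ratio 0.18). The difference between classes was not tested. No direction is established in pericytes: the plates stand at 57.2 against 57.1 at their closest, the interval of -0.09 to 0.44 includes equal levels, and the ratio was -0.12 with a mitochondrial limit of 5% and 0.0024 without the Gpr124 fl/fl PDGFRB-gate plate.

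Wells under 1000 UMIs, which entered the comparisons only under the alternatives with a lower limit of 500 UMIs and with the low-well level subtracted, held 173 Col1a1 UMIs, more than the 119 of Col1a2, and also 5 Dcn and 6 Col6a1 UMIs, 2 genes with none in the 32 cells. Per 10000 UMIs, Col1a1 was at 7.67 in these wells and 0.373 in pericytes. Dcn (0.222) and Col6a1 (0.266) lay below the 0.458 that a count of 0 allows in pericytes, so no excess over the cells is shown for them.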

How the results depend on the processing

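The count of the 10 genes called higher in pericytes was 2 and lay between 2 and 3 when each plate was left out. It was 4 without the filter on low counts and 1 without the cells that share a barcode, where Bgn was no longer among the 121 genes tested. All genes called numbered 49, against 236 without the filter, 21 without cells that share a barcode and 30 to 52 when each plate was left out. Where the Gpr124 ΔEC/ΔEC PDGFRB-gate plate was left out, 30 were called. With the plate as a replicate block, which pairs the classes of a plate, 2 of the 10 were called (Bgn log2 fold change 3.38, Fstl1 2.93), and no call on Bgn or Fstl1 changed under it or any alternative that tested them.

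In pericytes the log2 genotype ratio of the sum ran from -0.12 with a mitochondrial limit of 5%, the 1 value outside the main interval, to 0.37. It was 0.37 without the CD31-gate plate of Gpr124 fl/fl and 0.0024 without the PDGFRB-gate plate of that genotype. Leaving out the Gpr124 ΔEC/ΔEC CD31-gate plate, which held 0 pericytes, changed nothing. Without the Gpr124 ΔEC/ΔEC PDGFRB-gate plate, which held all 12 pericytes of that genotype, there is no ratio. The Col5a2 ratio was -2.16 instead of 0.18 without the PDGFRB-gate plate of Gpr124 fl/fl, and without the upper UMI limit the Fn1 ratio was 0.34 instead of -1.63. The cause of these changes was not tested. In endothelial cells the ratio of the sum was below 0 in all 16 alternatives, from -2.50 without the Gpr124 fl/fl CD31-gate plate to -0.75 without the Gpr124 fl/fl PDGFRB-gate plate. It was -0.99 without the Gpr124 ΔEC/ΔEC CD31-gate plate, -2.12 without the Gpr124 ΔEC/ΔEC PDGFRB-gate plate and -0.84 with the mitochondrial limit of 5%. Subtracting the level of low wells gave -1.84. No paired analysis of genotypes was possible because the genotype ratios come from no test. In the 11 endothelial cells a count of 0 allows up to 1.19 per 10000.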

Other observations

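Per 10000 UMIs, genes of embryonic and fetal tissue were higher in wells under 1000 UMIs than in pericytes, as Col1a1 was. Their UMIs per well were similar or, for Hbb-y, lower in pericytes. The embryonic globin gene Hbb-bh1 had 0.873 UMIs per low well and 0.905 per pericyte, which is 57.2 and 2.36 per 10000. Hba-x had 0.656 and 0.714 UMIs per well, Igf2 0.719 and 0.714, and H19 0.855 and 0.952. Hbb-y had 0.446 per low well and 0.190 per pericyte (0.0519 to 0.488). Hbb-bh1 was concentrated in 187 of the low wells, whereas Igf2 occurred in 651 and H19 in 713, and Col1a1 in 162. Unlike Col1a1, Hbb-bh1, H19 and Igf2 went up with depth in wells under 300 UMIs. Hbb-bh1 went from 0.288 UMIs per well under 100 UMIs to 1.77 from 200 to under 300, H19 from 0.257 to 1.42 and Igf2 from 0.271 to 1.10. In wells of 300 to under 1000 UMIs they were lower again, at 1.45, 1.10 and 0.908. By plate the low wells held 40 to 48 Col1a1 UMIs. These genes were picked after their values were seen.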
